A study of Bos taurus with 6 samples.

Results

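The 9 genes described here form the switch that commits a cell to copy its DNA: the D-type cyclins CCND1, CCND2 and CCND3, their kinases CDK4 and CDK6, the CDK inhibitors CDKN1A, CDKN1B and CDKN1C, and their substrate RB1. They were taken by gene symbol from the 15314 named genes of a table of scaled read counts, all 9 were found once, and all 9 had a mean of at least 10, the minimum for testing, which 12070 genes met. The table holds polyadenylated RNA of bovine embryos from in vitro fertilization, collected at day 6 as late morulae, the stage before the blastocyst cavity forms. Small interfering RNA had been injected into the embryos: against NOTCH1, a NOTCH receptor, in the first group, against RBPJ, the transcription factor that carries the NOTCH signal to its genes, in the second, and a nonspecific sequence in the control. Each of the 3 groups had 2 libraries of 15 pooled embryos, and knockdown lowers a transcript without removing it. No strain or separate oocyte collection is named, so the p-values describe how these libraries vary, which could be technical variation alone. In pooled embryos, fewer cells of a type and less RNA per cell cannot be told apart.

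D-type cyclins are made in response to growth signals and bind CDK4 or CDK6. The active kinase phosphorylates RB1, which then releases E2F transcription factors to switch on genes of DNA synthesis. CDKN1A (p21), a main target of p53, CDKN1B (p27) and CDKN1C (p57) block CDK2 complexes and also bind those of cyclin D. In the mouse and in human cells, CCND1 and CDKN1A have both been described as genes that respond to NOTCH signalling, in a way that depends on the cell type. Early cleavage divisions in mammals have short gap phases, and control of the G1 phase by these genes is added as development goes on.

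RBPJ itself stood at 121 and 94.5 scaled counts in the RBPJ knockdown, against 447 and 391 in the control (log2 fold change -1.96, limma adjusted p = 0.00143). NOTCH1 stood at 48.0 and 49.5 in the NOTCH1 knockdown, against 69.6 and 140 in the control, and did not pass (0.466 of the control mean, limma adjusted p = 0.634). In the RBPJ knockdown NOTCH1 stood at 50.0 and 125, the lower of which was close to the NOTCH1 knockdown values. The library numbered 1 was the lower in both the control and the RBPJ knockdown. Library totals ran from 10365695 to 10815554 scaled counts, from about 9650000 to 13600000 reads. Of 9 morula and blastocyst markers, 8 were measured, and SOX2 was absent from the deposited values. Their summed level ran from 42600 to 58800 over the libraries, with POU5F1, a pluripotency factor, at 10900 or more in each. Of 10 cumulus and granulosa markers, 8 were measured, FSHR and PTX3 being absent, and they summed to between 303 and 418. HBB and PTPRC, defining genes of red and white blood cells, stayed at 11.3 or below. The 8 fibroblast and blood markers together summed to 2440 to 2920, mostly from HBA, another globin gene, at 976 to 1380, PDGFRA at 830 to 995 and COL1A1 at 286 to 346.

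None of the 9 genes passed in either knockdown in the fit without a replicate block, and with the replicate number as a block 1 did, CCND3 in the NOTCH1 knockdown. The block raised the genes called to 138 in the NOTCH1 knockdown, 12 in the RBPJ knockdown and 15 between the knockdowns. Without the block, limma called 0 of 12070 genes (0%) in the NOTCH1 knockdown, with 880 at an unadjusted p below 0.05 (7.29%), and CCND3 was the 1 member among those. In the RBPJ knockdown it called 1 gene (0.00829%), RBPJ, with 524 at an unadjusted p below 0.05 (4.34%) and no member among them. Between the knockdowns, the 1 gene called was again RBPJ (0.00829%). Libraries of the NOTCH1 knockdown lay above both controls for 2 of the 9 members, where 18.6% of all genes tested did, and below both for 2, where 17.2% did. Those of the RBPJ knockdown lay above both controls for 2 members, against 15.3% of all genes, and below both for 3, against 16.8%. In either direction that makes 4 of 9 members in the NOTCH1 knockdown, against 35.9% of all genes, and 5 of 9 in the RBPJ knockdown, against 32.1%. The median log2 fold change of the 9 members was 0.00 in the NOTCH1 knockdown and 0.13 in the RBPJ knockdown, where all genes tested had medians of 0.01 and 0.00. The members had fold changes of both signs, 5 higher and 4 lower by sign in each. Both knockdowns were set against the same control libraries, so their values are not independent of each other.

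**Figure D1:**
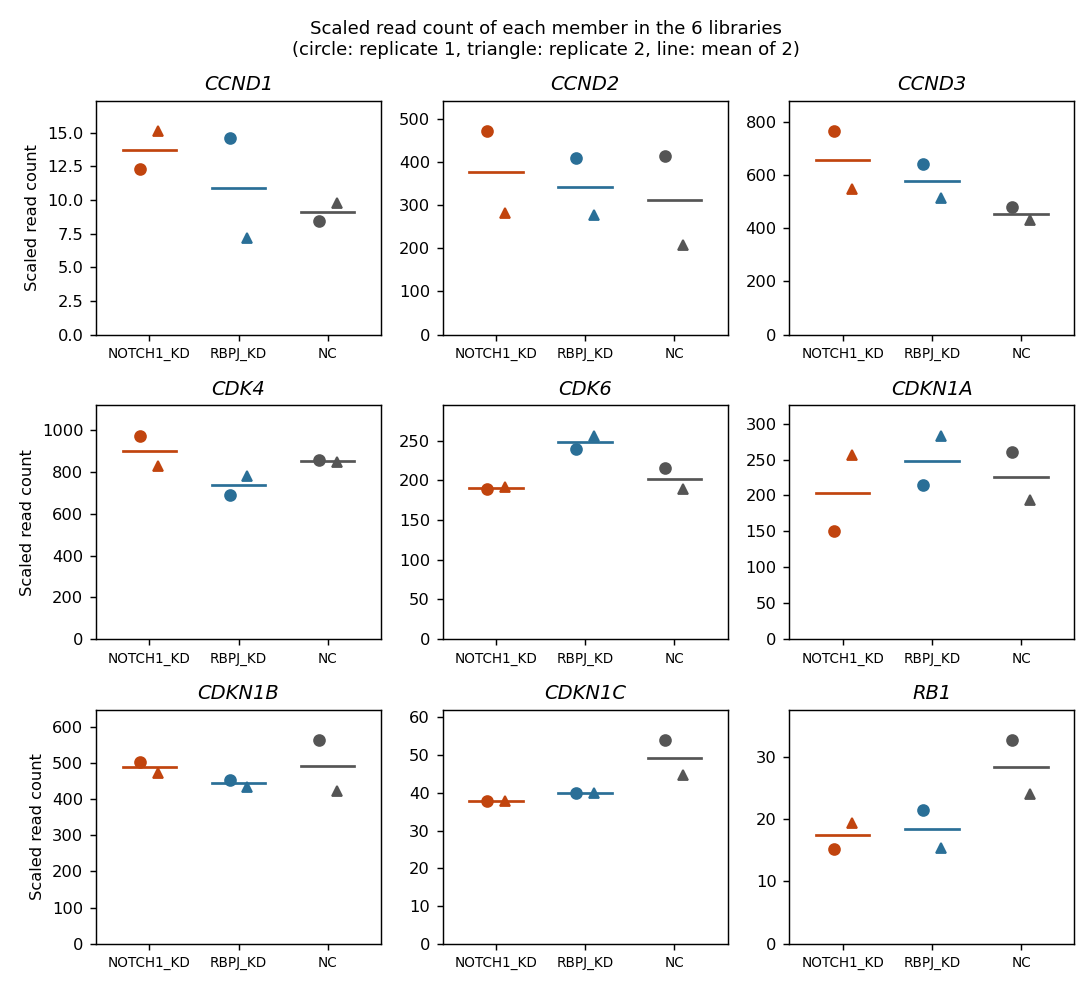
Scaled read count (vertical axis, from 0) of each gene in the 6 libraries, by group: circles are replicate 1, triangles replicate 2 and lines the mean of 2. CCND3 lies higher in the knockdown libraries (515 to 766) than in the controls (432 and 479), and RB1 and CDKN1C lie lower.

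CCND3 was the D-type cyclin with the clearest separation from the control. It had 766 and 547 scaled counts in the NOTCH1 knockdown, 643 and 515 in the RBPJ knockdown, and 479 and 432 in the control. Every knockdown library lay above both control libraries, while the libraries of the knockdowns overlapped. The mean was 657 ± 155 in the NOTCH1 knockdown, 579 ± 90.0 in the RBPJ knockdown and 455 ± 33.1 in the control (SD, n = 2 each). The log2 fold change was 0.51 in the NOTCH1 knockdown, with a 95% interval of 0.13 to 0.89 before adjustment (limma adjusted p = 0.538), and its unadjusted p was the 285th smallest. With the replicate number as a block, CCND3 passed narrowly (limma adjusted p = 0.0498, with 138 genes called in all), and over all other settings the adjusted p ran from 0.460 to 0.999. The log2 fold change was 0.27 when replicate 1 of the NOTCH1 knockdown was left out and 0.75 when replicate 2 was, and within replicate numbers 1 and 2 the difference was 0.68 and 0.34. In the RBPJ knockdown the log2 fold change was 0.34 (interval -0.04 to 0.72, limma adjusted p = 0.983).

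Summed morula and blastocyst markers, like CCND3, were higher in the library numbered 1 of each group, and their part in the CCND3 values was not tested. The sums stood at 58800 and 51700 in the NOTCH1 knockdown, 53800 and 42600 in the RBPJ knockdown, and 47500 and 45300 in the control. This order was not shared by all the markers. KRT8, KRT18 and GATA3 had it in each group, with KRT8 at 16100 and 7580 in the RBPJ knockdown. POU5F1, TFAP2C and CDH1 had the reverse order in the control and in the RBPJ knockdown, and NANOG and CDX2 differed between groups. By sign, 7 of the 8 markers were higher in the NOTCH1 knockdown (median log2 fold change 0.26) and 4 of 8 in the RBPJ knockdown (median -0.01). GATA3, a trophectoderm factor, had 1020 and 856 scaled counts in the NOTCH1 knockdown, against 577 and 515 in the control, and did not pass (limma adjusted p = 0.466). Summed oocyte and maternal transcripts, 12 of 12 measured, were lower in the library numbered 1 of every group: 219 and 493 in the NOTCH1 knockdown, 295 and 521 in the RBPJ knockdown, and 557 and 920 in the control. All 4 knockdown sums lay below both control sums. By sign, 12 of 12 were lower in the NOTCH1 knockdown (median log2 fold change -0.95) and 11 of 12 in the RBPJ knockdown (median -0.85), and none passed. RB1, CDKN1C and CKS1B were likewise lower in every knockdown library than in either control. By replicate number, only CKS1B followed these sums in each group. RB1 (32.7 and 24.0) and CDKN1C (53.9 and 44.7) ran the other way in the control. RB1 also did so in the RBPJ knockdown (21.5 and 15.4) but not in the NOTCH1 knockdown (15.3 and 19.4). The part of maternal transcripts in the values of these genes was not tested.

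CCND2, the second D-type cyclin, differed more between libraries of a group than between groups. It had 471 and 281 scaled counts in the NOTCH1 knockdown, 408 and 278 in the RBPJ knockdown, and 414 and 208 in the control. The library numbered 1 was the higher in each group, by 1.68-fold in the NOTCH1 knockdown, 1.47-fold in the RBPJ knockdown and 1.99-fold in the control. Its within-group SD of 0.55 on the log2 scale was at the 93.1st percentile of all genes tested, where the median SD was 0.18. The log2 fold changes of 0.31 (interval -0.37 to 0.98) and 0.20 (interval -0.48 to 0.87) in the NOTCH1 and RBPJ knockdowns were within that spread.

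CCND1 was barely detected in these morulae. It had 12.3 and 15.1 scaled counts in the NOTCH1 knockdown, 14.6 and 7.19 in the RBPJ knockdown, and 8.46 and 9.80 in the control. These values stand for about 7 to 19 reads a library, and counting alone gives an error of 37.7% at the lowest. Both NOTCH1 knockdown libraries lay above both controls, and those of the RBPJ knockdown lay on either side of them. The control mean of CCND1 was 9.13, so it met the minimum mean of 10 only through its knockdown values. The log2 fold change of 0.53 in the NOTCH1 knockdown had an interval of -0.70 to 1.76, so a difference was not detectable with these libraries, whose within-group SD for CCND1 was 0.40 on the log2 scale. By scaled counts, not corrected for transcript length, CCND1 ranked at the 1.96th percentile among genes tested. In the RefSeq gene table it overlaps LTO1, and the deposited values do not show whether reads were shared.

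The kinases CDK4 and CDK6 lay on opposite sides of the control in the RBPJ knockdown, though neither passed. CDK4 had 974 and 828 scaled counts in the NOTCH1 knockdown, 690 and 781 in the RBPJ knockdown, and 856 and 849 in the control. Both RBPJ knockdown libraries were the lowest of the 6, and the NOTCH1 knockdown libraries lay on either side of the controls. The log2 fold change of CDK4 was -0.21 in the RBPJ knockdown (interval -0.50 to 0.07, limma adjusted p = 0.983) and 0.07 in the NOTCH1 knockdown (interval -0.21 to 0.36, limma adjusted p = 0.938).

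CDK6 had 189 and 192 scaled counts in the NOTCH1 knockdown, 240 and 256 in the RBPJ knockdown, and 215 and 189 in the control. Both RBPJ knockdown libraries were the highest of the 6, and those of the NOTCH1 knockdown overlapped the controls. The log2 fold change of CDK6 was 0.30 in the RBPJ knockdown (interval -0.08 to 0.68, limma adjusted p = 0.983) and -0.08 in the NOTCH1 knockdown (interval -0.46 to 0.29, limma adjusted p = 0.954). CDK6 varied least within groups among the 9, with an SD of 0.08 on the log2 scale. In the RefSeq gene table CDK6 overlaps genes of long noncoding RNAs, and whether reads were shared cannot be seen from the deposited values.

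CDK4 and CDK6 were also the 2 members with an unadjusted p below 0.05 when the knockdowns were compared directly, where 3.64% of all genes had one. CDK4 had a log2 difference of 0.29 for the NOTCH1 over the RBPJ knockdown, with an interval of 0.01 to 0.57. CDK6 had one of -0.38, with an interval of -0.76 to -0.01. Neither passed (limma adjusted p = 0.999 for each). Libraries of these groups did not overlap for 4 members, CDK4, CDK6, CDKN1B and CDKN1C, against 33% of all genes.

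**Figure D2:**
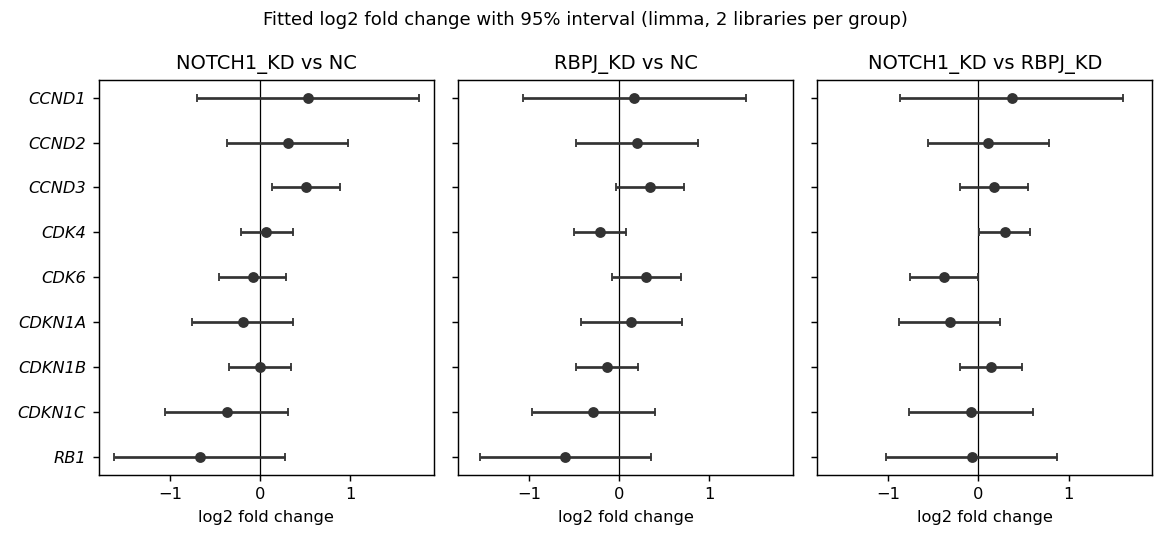
Fitted log2 fold change (horizontal axis, points) with its 95% interval (bars, not adjusted for the number of genes) for each gene in the 3 comparisons. The interval leaves out 0 for CCND3 in the NOTCH1 knockdown (0.13 to 0.89) and for CDK4 and CDK6 between the knockdowns, and none of these passed after adjustment.

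Of the CDK inhibitors, CDKN1A varied widely with no order between groups. CDKN1A had 150 and 257 scaled counts in the NOTCH1 knockdown, 214 and 283 in the RBPJ knockdown, and 260 and 193 in the control. All groups overlapped, and its within-group SD of 0.40 on the log2 scale was at the 85.3rd percentile. The difference within replicate number 1 was -0.79 and within number 2 it was 0.41 for the NOTCH1 knockdown, and for the RBPJ knockdown they were -0.28 and 0.55. The fitted log2 fold changes were -0.19 (interval -0.75 to 0.37) in the NOTCH1 knockdown and 0.13 (interval -0.42 to 0.69) in the RBPJ knockdown.

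CDKN1B, the inhibitor known as p27, was the most even member over the libraries. It had 504 and 473 scaled counts in the NOTCH1 knockdown, 454 and 433 in the RBPJ knockdown, and 563 and 422 in the control. The control libraries enclosed all the knockdown libraries. Its log2 fold change was 0.00 in the NOTCH1 knockdown, with an interval of -0.34 to 0.34, and -0.14 in the RBPJ knockdown, with one of -0.48 to 0.21.

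CDKN1C, an imprinted inhibitor known as p57, had few reads, with lower values in every knockdown library than in either control. It had 37.8 and 37.7 scaled counts in the NOTCH1 knockdown, 40.0 and 40.0 in the RBPJ knockdown, and 53.9 and 44.7 in the control. The groups did not overlap, and the knockdown means were 0.766 (NOTCH1) and 0.812 (RBPJ) of the control mean. The log2 fold changes of -0.37 (interval -1.05 to 0.31, limma adjusted p = 0.845) and -0.29 (interval -0.97 to 0.40, limma adjusted p = 0.989) did not pass. About 35 to 52 reads a library stand behind these values, with a counting error of 16.9% at the lowest.

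RB1, the substrate of the cyclin D kinases, had the lowest fold changes of the 9. It had 15.3 and 19.4 scaled counts in the NOTCH1 knockdown, 21.5 and 15.4 in the RBPJ knockdown, and 32.7 and 24.0 in the control. Every knockdown library lay below both controls, and the knockdowns overlapped each other. The mean was 17.4 ± 2.86 in the NOTCH1 knockdown, 18.5 ± 4.34 in the RBPJ knockdown and 28.4 ± 6.15 in the control (SD, n = 2 each). The log2 fold change was -0.67 in the NOTCH1 knockdown (interval -1.62 to 0.28, limma adjusted p = 0.784) and -0.60 in the RBPJ knockdown (interval -1.54 to 0.35, limma adjusted p = 0.983). RB1 rests on about 15 to 31 reads a library, a counting error of 25.8% at the lowest, and it overlaps LPAR6 in the RefSeq gene table. Its relatives RBL1 and RBL2, which bind E2F factors too, had log2 fold changes of 0.17 and 0.22 in the NOTCH1 knockdown and -0.04 and -0.02 in the RBPJ knockdown.

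**Figure D3:**
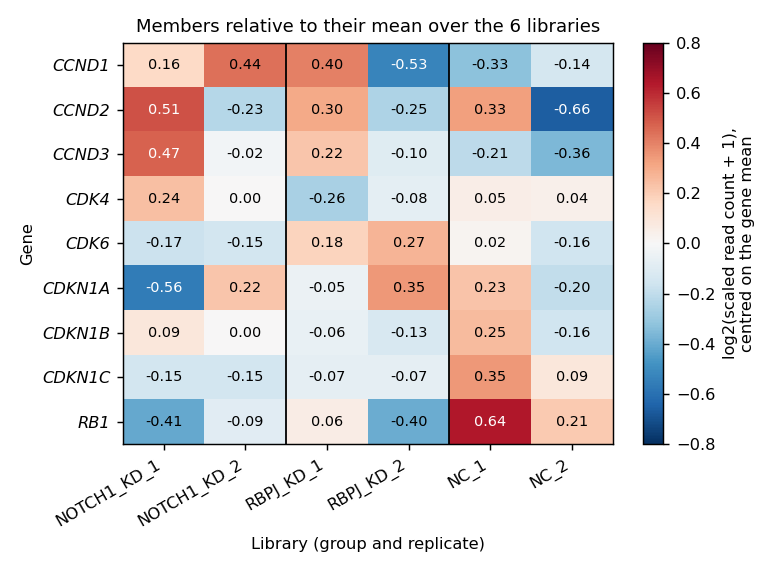
Each gene's log2(scaled read count + 1) in the 6 libraries (columns) minus its mean over them, as a colour and a number. CCND2 splits the libraries by replicate number in each group, from 0.51 down to -0.66, and RB1 is above its mean in both controls (0.64 and 0.21).

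Genes around this switch gave no call in either knockdown. Of 20 other G1 cyclin, CDK2, INK4 and E2F genes, 19 were tested, and 0 passed in either direction. Their median log2 fold change was -0.01 in the NOTCH1 knockdown and -0.06 in the RBPJ knockdown, and in the RBPJ knockdown 14 of 19 were lower by sign, where 49.7% of all genes were higher. CDK2, the kinase that acts after CDK4 and CDK6, had 545 and 464 scaled counts in the RBPJ knockdown, against 611 and 611 in the control. CCNE2, its cyclin E partner, had 202 and 144 in the RBPJ knockdown, against 232 and 218 in the control. Both libraries of the knockdown lay below both controls for each, with log2 fold changes of -0.28 and -0.40. In the NOTCH1 knockdown the smallest p values of the list were those of TFDP1, a partner of E2F factors, with a log2 fold change of 0.24, and of CDKN2B, an inhibitor of CDK4 and CDK6, with one of -0.97. CDKN2B was near the limit of detection, at 5.11 and 9.70 in the NOTCH1 knockdown, against 10.6 and 20.7 in the control. It met the minimum mean of 10 only through its control values.

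The 20 E2F target genes of S-phase entry had a median log2 fold change of 0.02 in the NOTCH1 knockdown and -0.10 in the RBPJ knockdown, with 0 passing in either. MYBL2, a transcription factor of the cell cycle, had 7200 and 6650 scaled counts in the NOTCH1 knockdown, against 5580 and 5480 in the control (log2 fold change 0.32, limma adjusted p = 0.509). MCM2, a subunit of the replicative helicase, had a log2 fold change of 0.21 there. CDC6, which loads that helicase, had 238 and 239 in the RBPJ knockdown, against 328 and 308 in the control (log2 fold change -0.41, limma adjusted p = 0.983), and CCNA2, cyclin A of S phase, had one of -0.18. Set directly against the RBPJ knockdown, the NOTCH1 knockdown was higher by sign in 20 of 20 of these targets, with a median of 0.13. All genes had a median of 0.01 there, and 52.7% were higher by sign. In the same comparison 14 of 19 other G1 genes were higher by sign (median 0.09). So were 11 of 20 genes of p53 and its targets (median 0.02) and 8 of 16 genes of CDK activation and turnover (median 0.00). Libraries did not overlap for 8 of the 20 E2F targets, all higher, against 17.5% of all genes, and no target passed. These targets were measured in the same libraries, so their signs are not independent of each other.

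Among 16 genes of CDK activation and of cyclin D, p21 and p27 turnover, CKS1B had the smallest p in both knockdowns. CKS1B, a cofactor with which the ubiquitin ligase SKP2 marks p27 for breakdown, had 301 and 383 scaled counts in the NOTCH1 knockdown, 327 and 361 in the RBPJ knockdown, and 425 and 496 in the control. Its log2 fold change was -0.43 in the NOTCH1 knockdown (limma adjusted p = 0.606) and -0.42 in the RBPJ knockdown (limma adjusted p = 0.983). CUL4A, a ubiquitin ligase scaffold, had one of -0.18 in the NOTCH1 knockdown, and AMBRA1, which directs D-type cyclins to breakdown in human and mouse cells, had one of 0.28 in the RBPJ knockdown. The list's median was -0.06 in the NOTCH1 knockdown and -0.02 in the RBPJ knockdown, with 0 of 16 passing in each.

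Of 22 genes of p53 and its targets, 20 were tested and 0 passed, with 10 higher and 10 lower by sign in each knockdown. FAS, a death receptor, had 54.2 and 47.4 scaled counts in the NOTCH1 knockdown, against 30.6 and 20.7 in the control. SESN1, a stress-induced regulator of growth signalling, had a log2 fold change of -0.62 there. RRM2B, a ribonucleotide reductase subunit, had 20 and 15.4 in the RBPJ knockdown, against 7.40 and 5.45 in the control (limma adjusted p = 0.983). RRM2B was near the limit of detection, with a control mean of 6.42, and met the minimum mean of 10 only through its knockdown values. TIGAR, a regulator of sugar metabolism, had a log2 fold change of -0.31 in the RBPJ knockdown.

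**Figure D4:**
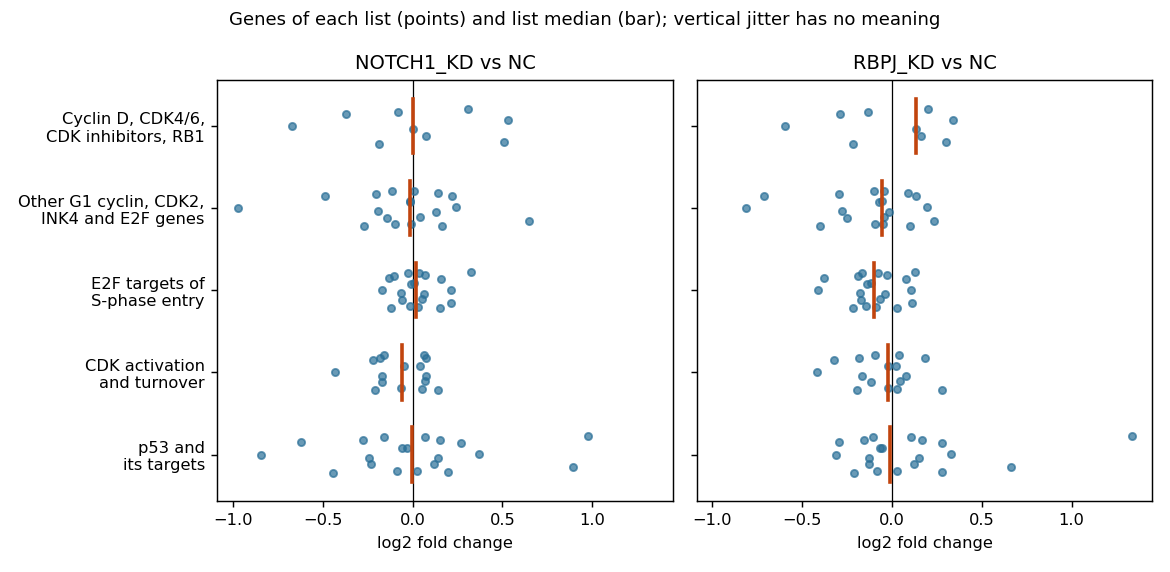
Log2 fold change (horizontal axis) of each tested gene of the 5 lists, as points, and the list median, as bars, in the NOTCH1 (left) and RBPJ (right) knockdowns. Medians lie between -0.10 and 0.13 and no gene shown passed after adjustment.

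For each member, the genes with the most alike values over the 6 libraries were found by the root mean square difference of centred log2 values. STEAP3, at 0.025, and NFE2, at 0.053, were the most alike to CCND3. STEAP3, a metal reductase, had 5140 and 3760 scaled counts in the NOTCH1 knockdown, 4470 and 3630 in the RBPJ knockdown, and 3380 and 2980 in the control. DFFA was the most alike to CDKN1B (0.019), YDJC to CDK4 (0.037), NCOA6 to CDK6 (0.040), ZBTB24 to CDKN1C (0.042) and MKX to CCND2 (0.078). The closest genes to CCND1, CDKN1A and RB1 were further off, SSBP2 at 0.086, CD14 at 0.090 and CTSK at 0.106.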

How the data were processed

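The submitters' processing notes list Salmon 0.14.1, DESeq2 and the genome ARS-UCD1.2 without their roles, and neither annotation nor filters. The deposited signal values look like read counts that the authors scaled per library: 80.7% to 84.0% of low values lay within 0.1 of a multiple of 1 step per library, too few to recover whole reads, so no count test was run. Approximate reads are totals or values divided by that step, and counting errors cover counting only. Of 17922 rows, 2551 had no gene name (6.20% to 7.22% of a library's total) and were left out; for 57 repeated symbols the row with the higher mean was kept.

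Values were analysed as log2(value + 1), which understates fold changes of low genes. Genes with a mean of at least 10 were fitted with limma 3.58.1 in R 4.3.3 (group means, all 6 libraries, 3 residual degrees of freedom, variance trend), with Benjamini-Hochberg adjustment over all 12070 and a threshold of 0.05. The members and lists were chosen with earlier results of these data known. Named genes are the members, the targeted genes, the 2 smallest p values per pathway list where fewer than 2 passed, and the genes most alike to each member; RBL1, RBL2, STEAP3's values and the marker genes given were added after their values were seen.

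The labels number the replicates 1 and 2 in every group without saying what the number marks. Differences between replicates correlated between groups across genes at 0.213, 0.167 and 0.203, each over 0.1, which was the criterion for giving the fit with the replicate number as a block beside any result it changes. Calls refer to the fit without the block unless it is named. The alternatives changed the pseudocount (0.1 or 10), the filter (none, or a mean of 100), the scaling (median of ratios, quantile), the libraries (those of the groups compared, or each left out), the variance moderation and the threshold (0.1), or added a replicate block. Apart from the rank of CCND1 by scaled counts, levels are not compared between genes, because no transcript lengths were used. All 9 symbols matched the RefSeq table of another build (ARS-UCD2.0), used for overlapping genes only. Plots used matplotlib 3.10.9 (Python 3.11.15).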

Additional observations from a re-analysis of the deposited data

How the results depend on the processing

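No member was called under any setting except CCND3 with the replicate block, which called 1 member in the NOTCH1 knockdown and changed no other member's call. The block called 138 genes in the NOTCH1 knockdown, 12 in the RBPJ knockdown and 15 between the knockdowns. Without the variance trend, 0 genes were called in the RBPJ knockdown and 0 between the knockdowns. Over omitted libraries the counts ran from 0 to 1 in the NOTCH1 knockdown, from 1 to 3 in the RBPJ knockdown and from 0 to 3 between the knockdowns. The cause of these differences was not tested.

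Signs of uncalled log2 fold changes turned in some settings. CDKN1B in the NOTCH1 knockdown was 0.00 after median-of-ratios rescaling and -0.01 after quantile normalization, and RB1 between the knockdowns was 0.06 after quantile normalization. Over omitted libraries, the NOTCH1 knockdown gave ranges of -0.19 to 0.80 for CCND2, -0.04 to 0.19 for CDK4, -0.17 to 0.01 for CDK6, -0.57 to 0.20 for CDKN1A and -0.21 to 0.21 for CDKN1B. The RBPJ knockdown gave -0.30 to 0.63 for CCND1, -0.30 to 0.69 for CCND2, -0.08 to 0.35 for CDKN1A and -0.34 to 0.07 for CDKN1B. Between the knockdowns they were -0.10 to 0.83 for CCND1, -0.26 to 0.48 for CCND2, -0.07 to 0.41 for CCND3, -0.71 to 0.06 for CDKN1A and -0.30 to 0.15 for RB1. With a minimum mean of 100, CCND1, CDKN1C and RB1 were not tested. Depth limits these same 3 genes most.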

Other observations

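Ratios of paired genes within a library do not depend on the scaling between libraries; these pairs were chosen after their values were seen, and no test was run. The ratio of CDK6 to CDK4 was 0.348 and 0.328 in the RBPJ knockdown, against 0.251 and 0.223 in the control, and in the NOTCH1 knockdown it was 0.194 and 0.231. It was thus higher in both RBPJ knockdown libraries than in the other libraries. The ratio of CDKN1A to CDKN1B was 0.298 and 0.544 in the NOTCH1 knockdown, 0.470 and 0.654 in the RBPJ knockdown, and 0.462 and 0.457 in the control. The ratio of CCND3 to CCND2 was 1.63 and 1.95 in the NOTCH1 knockdown, 1.57 and 1.85 in the RBPJ knockdown, and 1.16 and 2.07 in the control, so that the groups overlapped. Gene lengths were not used, so the ratios say nothing of which gene of a pair is the more abundant.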
